A study of Mus musculus with 8 samples.

Results

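Small nuclear RNAs are the RNA cores of the spliceosome and of the machine that trims histone pre-mRNAs. Of the 109463 transcripts in a table of ribosome-protected fragment counts from mouse brain, 1382 (1.26%) carry the annotation snRNA, and these rows are described here. They were chosen by that annotation alone. Only 11 of them bear a family name: 4 copies of U1, 2 of U6, and 1 each of U2, U5, U7, U11 and U12. The other 1371 have numbered Gm symbols, and no row is named U4, U4atac or U6atac.

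U1, U2, U4 and U5 take part in the splicing of most introns, U11 and U12 replace U1 and U2 on the rare minor-class introns, and U7 directs the processing of replication-dependent histone pre-mRNAs. Each of these RNAs is exported after transcription, receives a ring of Sm proteins in the cytoplasm and returns to the nucleus. The survival motor neuron protein SMN, with its Gemin partners, loads that ring, which in U7 holds Lsm10 and Lsm11 in place of 2 Sm proteins. U6 is the exception among the named families: it is made by RNA polymerase III, stays largely in the nucleus and carries a ring of LSm proteins that SMN does not load. U6 therefore serves below as a reference within each library.

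The 8 libraries came from brains of mice at postnatal day 5, all on the FVB background and all of the Taiwanese model of spinal muscular atrophy, in which the human SMN2 transgene supplies SMN. Control brains, of the genotype Smn+/-; SMN2tg/0, gave 3 SMN immunoprecipitates and a single IgG immunoprecipitate: lysates were cleared of nuclei, digested with RNase I, the ribosomes were pelleted, and the pellet was incubated with antibody to SMN or with IgG. The 2 RiboLace libraries (capture of active ribosomes) and the 2 polysome libraries (ribosomes of sucrose gradient fractions) were made from Smn-/-; SMN2tg/0 brains, early in the disease. That label marks both mouse Smn alleles as mutant. All groups thus carried SMN2, and all extracts are labelled cytoplasmic RNA. Genotype and protocol change together between the immunoprecipitates and the other libraries and cannot be told apart. The material is whole brain, so fewer cells of a type and less RNA per cell cannot be told apart either.

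Reads were counted with 1 row per gene, 1 row per named snRNA family and each unnamed snRNA row. This total, behind every scaled value below unless another is named, ranged from 189609 to 349210 in the SMN immunoprecipitates. It was 321846 in the IgG library, 58757 and 69640 in RiboLace and 1851285 and 2548779 in polysomes. Levels are given as CPM, counts per 1e+06 of these reads, and a single read was worth 17.0 CPM in the shallower RiboLace library and 0.392 in the deeper polysome library. Coding genes received 68.5% to 71.0% of SMN reads, 64.7% of IgG reads, 68.0% and 69.8% of RiboLace reads and 89.8% and 90.0% of polysome reads. The neuronal gene Tubb3 was read in all 8 libraries, at 1893 to 3619 CPM, and the pancreatic gene Ins2 had 1 read in all. SMN replicate 2 stood highest of the SMN libraries for 5 of the 7 named families, and results that rest on it are given with and without it.

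The rows cannot be read as separate genes, since a short fragment can match several near-identical copies of an snRNA. The sources used here do not say whether such a read was counted for each copy or given to 1 of them. Copies of a family often had near-equal counts: Gm24950, of the 191-base length of the named U2, Rnu2-10, had a mean of 1328 CPM in the SMN libraries beside 1305 for Rnu2-10, an example chosen after its values were seen. A family was represented by the named copy with the most reads. If reads were divided among copies, 1 row understates a family, and by more the more copies it has, U6 above all. Values with all rows of a family's lengths summed are therefore given where the choice changes the reading; if reads were counted for every copy, those sums overstate a family of many copies.

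**Figure D1:**
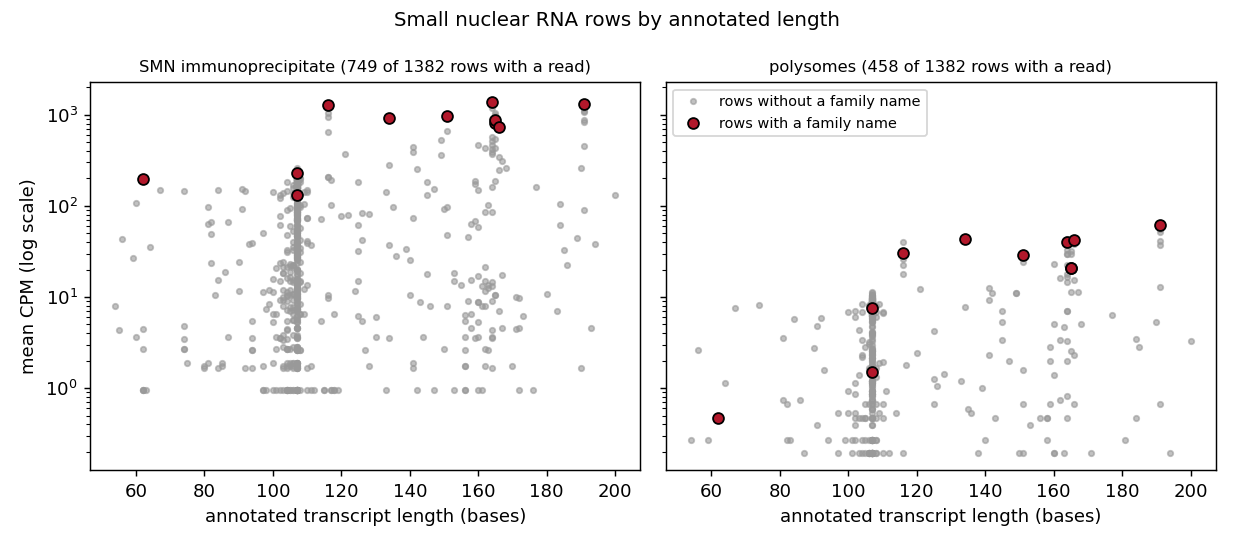
Mean CPM (log axis) of each small nuclear RNA row with at least 1 read, against its annotated length in bases, in the SMN immunoprecipitates (left) and the polysomes (right). Red points are the 11 named rows and grey points the unnamed ones, which stack at 107 bases (U6), 116 bases (U5), 164 to 166 bases (U1) and 191 bases (U2).

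Of the 1371 unnamed rows, 574 had no read in any library and 306 had 100 or more. Unnamed rows of exactly the length of a named copy numbered 54 for U1, 13 for U2, 12 for U5, 406 for U6, 21 for U7, 4 for U11 and 6 for U12. The U2-length rows were all read, the U6-length rows were read in 345 of 406 cases, and the U7-length rows were read in 5 of 21 cases with no more than 6 reads each. Among rows of the U7 length, reads thus fell almost wholly on Rnu7 itself, and rows of other lengths could not be assigned to U7. The 5 unnamed rows with the highest totals, Gm25679, Gm22317, Gm22634, Gm22068 and Gm26444, all measured 164 bases, the length of Rnu1a1. Gm25679 had 231, 356 and 461 reads in the SMN libraries, beside 238, 325 and 441 for Rnu1a1. Among the 855 unnamed rows of a length that no named copy has, Gm22739, of 160 bases, was the most read. It stood at 372, 570 and 450 CPM in the SMN libraries, 401 in IgG, 919 and 936 in RiboLace and 26.5 and 19.6 in polysomes. This row was singled out after its values were seen, and its family was not assigned.

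U1 recognises the 5′ splice site. Its most-read named copy, Rnu1a1, lies at chr11:87422867-87423030 (RefSeq, GRCm38.p6), and Rnu1b1, Rnu1b2 and Rnu1b6 lie together on chromosome 3, with Rnu1b6 at chr3:96460024-96460189. Rnu1a1 stood at 1198, 1714 and 1263 CPM in the SMN immunoprecipitates, 1414 in IgG, 1422 and 1668 in RiboLace and 45.9 and 34.9 in polysomes. The IgG value lay inside the range of the SMN libraries, and both RiboLace values did too, while the polysome libraries lay far below all others.

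U2 pairs with the branch point. Rnu2-10, at chr11:101658238-101658424, stood at 1349, 1297 and 1269 CPM in the SMN libraries and at 1457 in IgG, with 1020 and 1208 in RiboLace and 67.5 and 56.1 in polysomes. The 3 SMN libraries were closest together, relative to their mean, for U2 (1305 ± 40.5 CPM, SD, n = 3), and all were below the IgG library.

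U5 holds the exon ends during the splicing reaction. Rnu5g, at chr9:65201726-65201841, had 1122, 1609 and 1128 CPM in the SMN libraries, 1187 in IgG, 1623 and 1498 in RiboLace and 32.4 and 28.2 in polysomes. SMN replicate 2 was above the IgG library and the other SMN libraries were below it.

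U11 and U12 form a joint particle on minor-class introns, U11 at the 5′ splice site and U12 at the branch point. Rnu11, at chr4:132270079-132270186, had 720, 1308 and 727 CPM in the SMN libraries, 659 in IgG, 1393 and 1889 in RiboLace and 47.5 and 38.1 in polysomes. All 3 SMN libraries exceeded IgG for U11, but 2 of them by little, and SMN replicate 2 by far more. Rnu12, at chr15:83149645-83149794, had 981, 1034 and 902 in the SMN libraries, 963 in IgG, 345 and 357 in RiboLace and 29.7 and 28.2 in polysomes. U12 was the Sm-class spliceosomal family with the lowest RiboLace level, and its RiboLace values did not overlap those of either immunoprecipitate.

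U7 was the rarest Sm-class family. Rnu7, at chr6:124741225-124741286, had 36, 46 and 61 reads in the SMN libraries and 56 in IgG, which are 181, 243, 175 and 174 CPM. It had 1 and 2 reads in RiboLace and 1 read in each polysome library. The immunoprecipitates thus held U7 at a steady level, whereas the other libraries barely registered it.

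U6 lies in the catalytic centre of the spliceosome. Rnu6, at chr17:13432033-13432139, had 46, 36 and 94 reads in the SMN libraries and 119 in IgG, or 231, 190, 269 and 370 CPM. RiboLace held 5 and 6 reads (71.8 and 102 CPM) and polysomes 15 and 18 (8.10 and 7.06). All 3 SMN libraries were below IgG, the reverse of the order seen for U11 and U7.

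**Figure D2:**
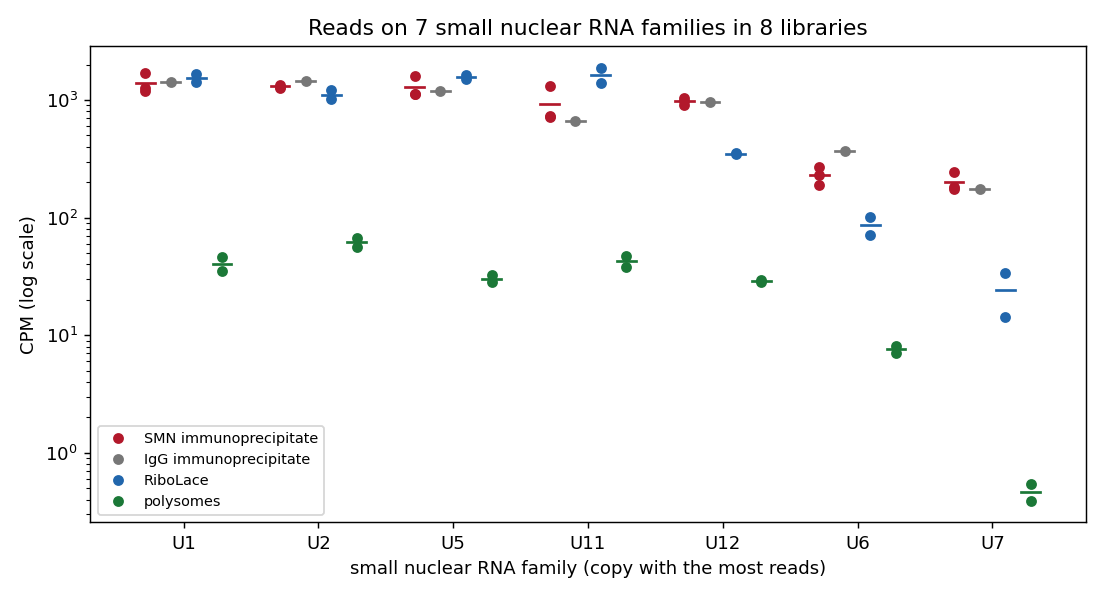
Levels in CPM (log axis) of the 7 named families in each of the 8 libraries, with 1 point per library and a bar at the mean of the group. The polysome points lie below all others in every family, the RiboLace points drop away from the immunoprecipitates for U12, U6 and U7, and the IgG point lies within the SMN range for U1, U5 and U12.

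Levels of different families were compared after division by transcript length, at 1 row per family. On that scale, as CPM per kilobase, the SMN immunoprecipitates held U5 at 11089 ± 2406 (SD, n = 3), U1 at 8485 ± 1715, U11 at 6853 ± 2518, U2 at 6832 ± 212, U12 at 6439 ± 439, U7 at 3217 ± 605 and U6 at 2151 ± 371. U5, U1, U11, U2 and U12 overlapped from neighbour to neighbour, while U7 and U6 lay below them and apart from each other. RiboLace gave U5 at 13450 ± 762 (SD, n = 2), U11 at 12246 ± 2619, U1 at 9419 ± 1062, U2 at 5832 ± 699, U12 at 2325 ± 59.8, U6 at 813 ± 200 and U7 at 390 ± 224. U5 and U11 overlapped there, and each family from U1 downwards lay below the one before it in both libraries. In polysomes the order was U2 at 324 ± 42.3 (SD, n = 2), U11 at 319 ± 50.0, U5 at 261 ± 25.4, U1 at 246 ± 47.4, U12 at 192 ± 6.84, U6 at 70.9 ± 6.87 and U7 at 7.52 ± 1.69, where U2 overlapped U11 and U5 overlapped U1. The annotated length of Rnu11 is 134 bases and its RefSeq length is 108 bases. Division by the RefSeq length would give a higher value, and which length is right was not checked. The annotated and RefSeq lengths were closer for Rnu2-10 (191 and 187) and Rnu12 (151 and 150).

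The place of U6 at or near the bottom of these orders holds only for single rows. With all rows of a family's lengths summed, U6 was the highest family in the SMN libraries, at 332877 ± 64428 CPM per kilobase (SD, n = 3), ahead of U1 at 177203 ± 39625, U2 at 75344 ± 2765 and U5 at 70083 ± 11599. U12, U11 and U7 followed at 11798 ± 622, 9268 ± 2884 and 3379 ± 686. U6 was also the highest in polysomes, at 11984 ± 2299 (SD, n = 2), and was second to U1 in RiboLace, at 86989 ± 17118 against 197423 ± 25478. U7 had the lowest level of the 7 families in all 3 groups on the summed scale. The true order of U6 among the families cannot be told from these counts.

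The question posed by the SMN immunoprecipitate is whether the RNAs on which SMN loads Sm rings are recovered with it beyond the IgG background. No difference passed the test. With edgeR's quasi-likelihood test, 0 of 7 families were called higher (0% of 7308 features tested) and 0 were called lower (0.0137% of features), and no family had an unadjusted p under 0.05. DESeq2 and limma-voom likewise called 0 of 7. The IgG group is a single library, and the test takes its spread to equal that of the SMN libraries.

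The estimates were small and their intervals wide. U1 had a log2 fold change of -0.0032 with a 95% interval of -0.95 to 0.94, U2 -0.15 (-1.08 to 0.79), U5 0.14 (-0.81 to 1.08) and U12 0.03 (-0.90 to 0.95). Of the remaining Sm-class families, U11 had 0.50 (-0.44 to 1.45) and U7 0.20 (-0.71 to 1.12). U11 was positive in all 13 alternative analyses, yet fell to 0.11 without SMN replicate 2, and U7 fell to -0.00066 without that library. U6, the LSm-ring family, had the lowest estimate at -0.67 (-1.52 to 0.19; edgeR adjusted p = 1.00), and it ranged from -0.81 to -0.53 over the alternatives. The upper bound was 1.12 or less in every Sm-class family but U11, and differences inside these intervals were not detectable with 3 SMN libraries and 1 IgG library.

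The summed share of reads on the 7 families was equally flat. It was 0.578%, 0.739% and 0.573% in the SMN libraries, 0.622% in IgG, 0.589% and 0.676% in RiboLace and 0.0232% and 0.0193% in polysomes. The Wilson 95% interval was 0.546% to 0.613% in SMN replicate 1 and 0.596% to 0.650% in IgG, so these 2 libraries overlapped within counting error, while SMN replicate 2, at 0.702% to 0.779%, lay above both. The mean share was 0.630% ± 0.0945 (SD, n = 3) in SMN, a log2 ratio to IgG of 0.02 (exact permutation test, two-sided, p = 1.0; the smallest p this design allows is 0.25). The sign of that ratio turned to -0.11 without SMN replicate 2.

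Sm-class reads were also set against U6 reads within each library, each family again at its most-read copy. The ratio was 24.0, 37.9 and 20.3 in the SMN libraries and 15.8 in IgG, so every SMN library exceeded the IgG library. With all rows of each family's lengths summed, the ratio was only 1.36, 2.26 and 1.21 in the SMN libraries and 0.977 in IgG, so its size depends on how copies are counted, while these 4 libraries kept their order. The mean log2 ratio of the single rows was 4.70 ± 0.46 (SD, n = 3) against 3.97, a difference of 0.72 (exact permutation test, two-sided, p = 0.5). The difference was 0.66 with the summed rows and kept its sign in all 6 alternatives, from 0.47 without SMN replicate 2 to 0.91 without SMN replicate 3. The test cannot go below 0.25 here, and the difference therefore cannot be called.

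The unnamed rows showed no call either. Of 1371 rows, 424 passed the filter on low counts, and 0 were called in either direction by edgeR. Of all 7308 features tested, 0% were called higher and 0.0137% lower. The log2 fold changes of the 424 rows had a median of -0.59, where all features tested had 0.06. By annotation, the median was -0.46 for 378 snoRNA, 0.0016 for 16 scaRNA, -0.67 for 28 lincRNA and 0.15 for 5356 protein-coding features. Of the 424 rows, 252 have the length of Rnu6, and such copies may share reads, so they are not separate measurements.

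**Figure D3:**
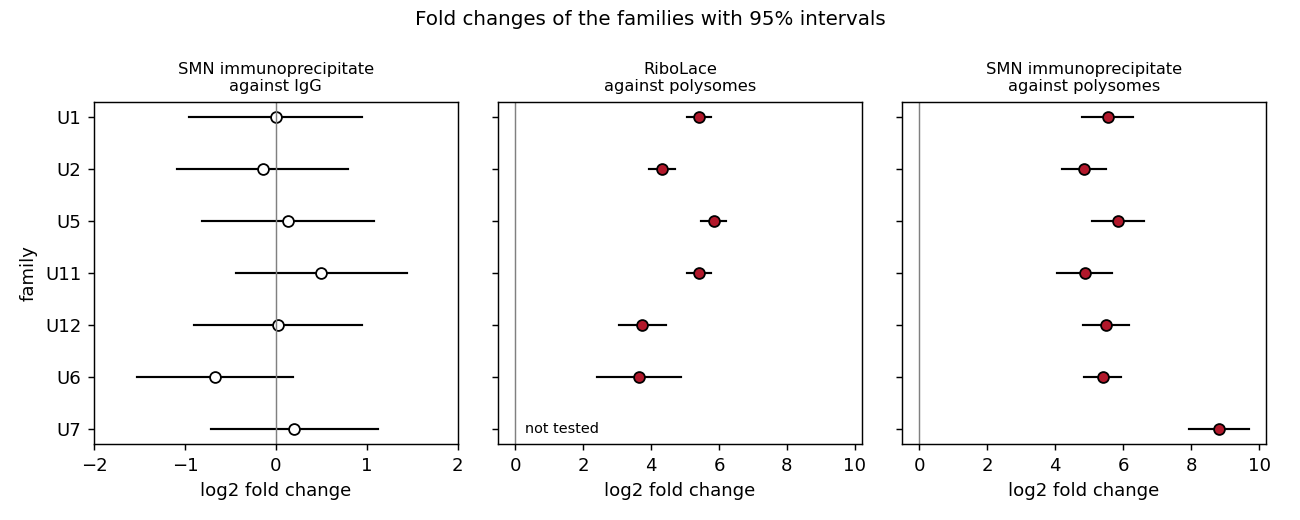
Log2 fold change (point) and 95% interval (line) of each family in the 3 comparisons, with filled points where the adjusted p is under 0.05; the horizontal axis of the left panel differs from the others. Every interval of the SMN against IgG comparison spans 0, and every family tested against polysomes lies to the right of it; U7 was not tested in the RiboLace comparison.

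Against polysomes, the snRNAs were far higher in RiboLace. Within the Smn-/-; SMN2tg/0 brains, all 6 families tested were called higher (5.57% of 13364 features were) and 0 were called lower (4.42% of features). U6 passed the filter on low counts through RiboLace alone, the group where it is high, and so had to differ; the other 5 also passed it in polysomes by themselves. U5 had the highest log2 fold change at 5.85 (SE 0.19), followed by U1 at 5.42 (SE 0.18), U11 at 5.41 (SE 0.18), U2 at 4.33 (SE 0.19), U12 at 3.75 (SE 0.35) and U6 at 3.65 (SE 0.62). The highest of the edgeR adjusted p-values was that of U6, 3.25e-07. With limma-voom, U6 was not called (adjusted p = 0.0742), and the other 5 passed narrowly. Their limma-voom adjusted p-values were 0.0418 for U1, U2, U5 and U11 and 0.0483 for U12. Both RiboLace libraries exceeded both polysome libraries in each family.

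U7 did not pass the filter in that comparison. Its 3 reads in RiboLace and 2 in polysomes give a ratio of rates of 51.4, with an exact 95% counting interval of 5.89 to 615. For scale, 176 U6 reads in SMN libraries against 11 in RiboLace give a ratio of 2.79 (1.52 to 5.68), and 143 U7 reads against 3 give 8.30 (2.78 to 40.7). Both ratios cross genotype and protocol, and their intervals cover counting error only.

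The fitted rises differed between the families, and whether they differ beyond the spread between libraries was not tested. The intervals below take the spread of each family from that of all features, with 2 libraries a group. The 95% interval of U5, 5.48 to 6.22, lies wholly above that of U2, 3.95 to 4.70, and above that of U12, 3.06 to 4.43. The share of the 7 families in RiboLace was 0.632% ± 0.0615 (SD, n = 2) against 0.0212% ± 0.00274 in polysomes, 29.8-fold (log2 4.90). The exact permutation test gave p = 0.333, the smallest that 2 libraries against 2 allow.

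In the SMN immunoprecipitates, compared with the same polysome libraries, the snRNAs were higher too. All 7 families were called higher (21.5% of 9076 features were) and 0 lower (15.8% of features). U1, U2 and U11 passed the filter on low counts in polysomes by themselves, whereas U5, U6, U7 and U12 needed the SMN libraries, where they are high, and their calls carry no weight of their own. U5 was at 5.85 (SE 0.35), U1 at 5.55 (SE 0.35), U12 at 5.51 (SE 0.32), U6 at 5.39 (SE 0.26), U11 at 4.87 (SE 0.38) and U2 at 4.84 (SE 0.31). The highest of their edgeR adjusted p-values was 5.13e-08, that of U11. The lower 95% bound was above 4 in every family. The order was not that of RiboLace: U12 and U6, the lowest of the 6 there at 3.75 and 3.65, stood above U11 and U2 here. Whether these orders differ was not tested, and both comparisons share their polysome libraries.

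U7 stood out by size. Its 143 reads in the SMN libraries against 2 in polysomes give a ratio of 427, with an exact 95% counting interval of 116 to 3556. The 56 reads of the IgG library give 383 (101 to 3239), so the difference from polysomes was as large without the SMN antibody. The fitted log2 fold change of U7, 8.83, depends on the prior count because of the 2 reads.

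The IgG library shared the difference in the other families too. Its level over the polysome mean was 35.0-fold for U1, 23.6-fold for U2, 39.1-fold for U5, 15.4-fold for U11, 33.2-fold for U12 and 48.8-fold for U6. The SMN means stood 34.4-fold, 21.1-fold, 42.4-fold, 21.5-fold, 33.6-fold and 30.4-fold above the same polysome mean. These folds share their polysome libraries. The share of the 7 families in SMN was 29.7-fold that in polysomes (log2 4.89; exact permutation test, two-sided, p = 0.1, the smallest that 3 libraries against 2 allow).

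Over polysomes, the unnamed rows were higher as well. In RiboLace, 216 of the 247 tested were called higher (5.57% of 13364 features were) and 0 lower (4.42% of features). In the SMN immunoprecipitates, 396 of the 396 tested were called higher (21.5% of 9076 features were) and 0 lower (15.8% of features). Of the rows tested, 147 and 236 have the length of Rnu6. Such copies may share reads, so they are not separate measurements. Rows that passed the filter only through the group where they are high had to differ, so the counts of calls carry no weight of their own. Other short noncoding classes moved the same way. Their shares below were taken over the reads on all transcripts, so they are not on the scale of the family shares above. Reads on snoRNAs, which guide RNA modification in the nucleolus, made up 1.97% ± 0.354 (SD, n = 3) of SMN reads, 2.58% of IgG, 1.12% ± 0.0686 (SD, n = 2) of RiboLace and 0.0991% ± 0.00242 of polysome reads. Reads on scaRNAs, the modification guides of Cajal bodies, made up means of 0.0773%, 0.0879%, 0.137% and 0.00657% in the same order of groups. The part of this general difference in the snRNA values was not tested.

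**Figure D4:**
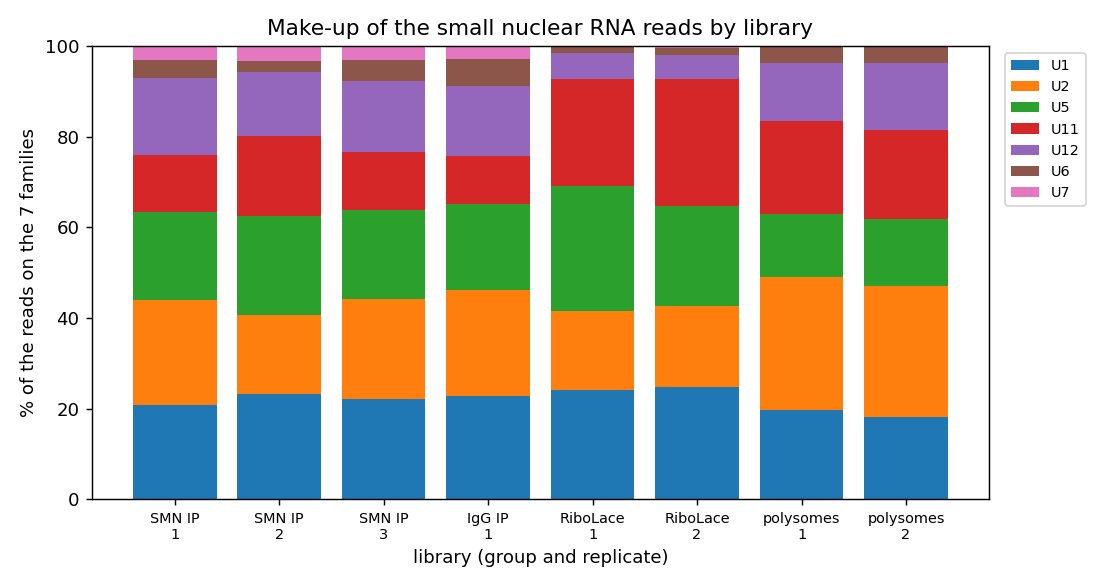
Percentage of the reads on the 7 families, each at its most-read copy, that fell on each family, in each library. U11 fills a larger band and U12 a smaller one in RiboLace, U2 is the largest band in polysomes, and U7 is visible in the immunoprecipitates alone.

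Composition, with each family at its most-read copy, differed between preparations. U2 made up 29.1% of the 7-family reads in each polysome library, against 17.3% and 17.9% in RiboLace and 17.5% to 23.4% in the immunoprecipitates, IgG included. U12 made up 5.85% and 5.29% in RiboLace and 12.8% to 17.0% in the 6 other libraries. U6 made up 1.22% and 1.51% in RiboLace, 2.57% to 4.70% in the SMN libraries, 5.94% in IgG and 3.50% and 3.66% in polysomes.

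The minor-class partners parted in RiboLace. U11 reads over U12 reads were 4.04 and 5.29 there, 1.60 and 1.35 in polysomes, 0.733, 1.27 and 0.806 in the SMN libraries and 0.684 in IgG. The RiboLace ratios thus lay above those of every other library. U1 over U2 was 1.39 and 1.38 in RiboLace, 0.680 and 0.622 in polysomes, 0.888, 1.32 and 0.995 in SMN and 0.970 in IgG, so polysomes were the lowest on that ratio. These ratios were chosen after the levels were seen and carry no test. The ratio of Sm-class to U6 reads was 81.0 and 65.2 in RiboLace and 27.6 and 26.3 in polysomes, a log2 difference of 1.27 (exact permutation test, two-sided, p = 0.333, the smallest possible), on 5 and 6 U6 reads in RiboLace. With the summed rows it was 6.29 and 5.64 in RiboLace and 1.42 and 1.52 in polysomes, a log2 difference of 2.02. Between SMN and polysomes the ratio of single rows differed by 0.03 on the log2 scale (exact permutation test, p = 1.0) and changed sign in 4 of 8 alternatives.

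**Figure D5:**
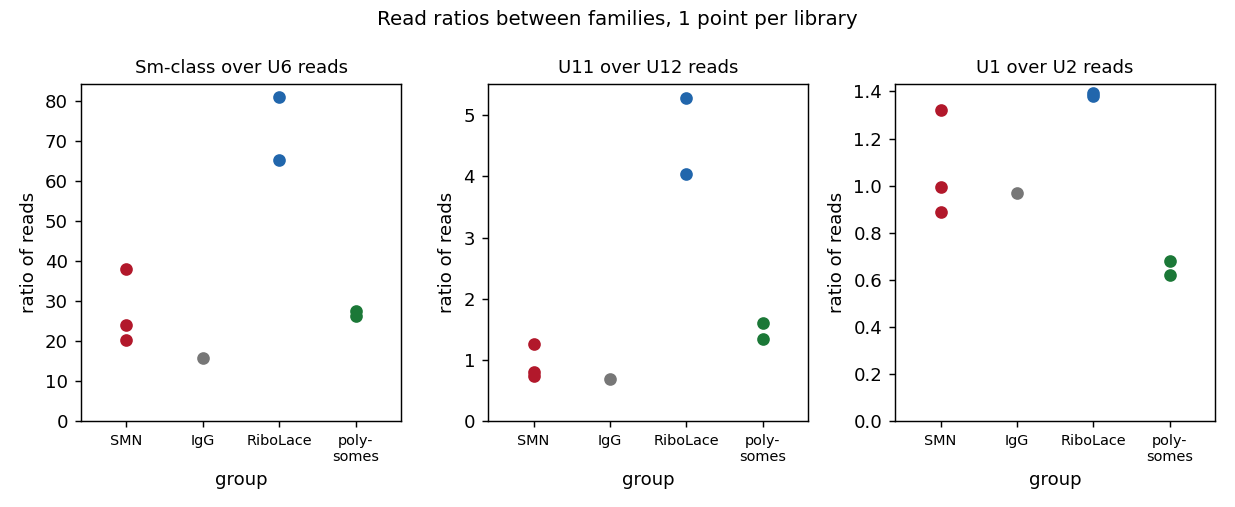
Read ratios within each library, with 1 point per library and each family at its most-read copy: Sm-class families over U6, U11 over U12, and U1 over U2. RiboLace lies above all other libraries in each panel, and polysomes lie below them for U1 over U2.

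Within U1, the copies were not read in a fixed proportion. Rnu1b6, 166 bases long, had 51.3%, 54.5% and 53.3% of the reads of Rnu1a1 in the SMN libraries and 50.3% in IgG, but 80.8% and 99.0% in RiboLace and 105% and 103% in polysomes. The immunoprecipitates and the other libraries did not overlap. The 3 rows of 166 bases with at least 50% of the reads of Rnu1a1 had medians of 50.5% to 54.5% of Rnu1a1 in the immunoprecipitates and of 75.8% to 102% in the other libraries. Rnu1b1, of 165 bases, had 56.7% to 60.0% of Rnu1a1 in the SMN libraries, 53.8% in IgG, 64.3% and 74.7% in RiboLace and 47.2% and 54.1% in polysomes, so RiboLace lay above the other libraries. Rnu1b2, of the same length, had 50.6% and 53.9% in polysomes, below the 56.0% to 68.4% of the other libraries. The copies share most of their sequence, and the contrast was chosen after the values were seen, so it is given with no test. In U6, Rnu6-ps2 had 63.0%, 50.0% and 58.5% of the reads of Rnu6 in SMN, 42.9% in IgG, 40.0% and 16.7% in RiboLace (2 and 1 reads) and 13.3% and 27.8% in polysomes (2 and 5 reads).

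Across the 8 libraries, the 5 features most like U1 by Pearson correlation of log2 CPM, among 6588 features, were all unnamed snRNA rows of 164 or 165 bases, led by Gm25679 (r = 1.00). The correlation with U1 was 0.998 for U5 (rank 19), 0.994 for U2 (rank 36), 0.981 for U11 (rank 119), 0.948 for U12 (rank 235) and 0.936 for U6 (rank 263). Features outside the snRNA annotation stood between them, such as the coding gene Gm20594 (0.998, rank 20) and the mitochondrial rRNA mt-Rnr2 (0.996, rank 27). The likeness is therefore not particular to snRNAs. The snRNA families share the contrast between polysomes and the other libraries, and the unnamed rows may share reads with U1, so these values are descriptive.

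Proteins of the snRNA pathway were read from their own mRNAs, in lists of 82 genes for assembly, ring, particle and transcription factors. Against IgG, 40 were tested and 0 were called. The nearest was Smn1, which encodes SMN, at a log2 fold change of 2.29 (SE 0.72, edgeR adjusted p = 0.638). Smn1 was called only without SMN replicate 2, at a log2 fold change of 2.41. In no other alternative, DESeq2, limma-voom and the other left-out SMN libraries included, was a gene of the lists called against the single IgG library. Snrpd3, an Sm ring protein, was at 1.27 (SE 0.70) and Gemin5, the subunit that binds the snRNA, at 0.54 (SE 0.68), neither called.

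In RiboLace against polysomes, 70 were tested and 0 were called higher (5.57% of all features were). The 4 called lower are 5.71% of those tested, near the 4.42% of all features. These were Sf3a1 at -2.80 (SE 0.58) and Sf3b3 at -1.003 (SE 0.35), both of the U2 particle, Ints4 of the Integrator complex that cleaves snRNA 3′ ends at -2.38 (SE 0.75), and the import receptor Kpnb1 at -0.92 (SE 0.28). In each of the 4 the sign held in every alternative that tested it, but 0 genes of the lists were called lower with limma-voom and 1 under the replicate block. Which group let the 4 pass the filter on low counts was not checked. A gene that passed through polysomes alone had to differ.

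In SMN immunoprecipitates against polysomes, 57 were tested, 6 (10.5%) were called higher, beside 21.5% of all features, and 14 (24.6%) lower, beside 15.8%, with a median log2 fold change of -0.47 where all features had -0.08. Higher were Smn1 (2.12, SE 0.26), Gemin5 (1.80, SE 0.48), Ints1 (1.17, SE 0.25) and the Sm protein gene Snrpb (0.78, SE 0.22). So were the U5 proteins Prpf8 (1.40, SE 0.26) and Eftud2 (0.97, SE 0.26). Smn1 is compared here with Smn-/-; SMN2tg/0 brains, so genotype and protocol differ together. Against IgG, within the control genotype, Smn1 stood at 2.29 (SE 0.72) and was not called. Which group let each called gene pass the filter on low counts was not checked. A gene that passed only through the group where it is high had to differ. Sm ring genes Snrpd1, Snrpd2 and Snrpg were lower, at -1.01, -1.24 and -1.73. Also lower were the U2 protein genes Sf3a1, Sf3a2, Sf3b1, Sf3b2 and Snrpb2 (-1.34 to -0.69), Prpf4 of the U4/U6 particle (-1.08), Snrpc of the U1 particle (-1.07), Pdcd7 of the U11/U12 particle (-1.495), the snRNA promoter factors Snapc1 (-1.41) and Snapc5 (-3.15) and the cap-binding gene Ncbp1 (-0.74).

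The split of those protein calls depended on scaling: 4 higher and 33 lower with library totals, 8 and 6 with scaling on coding genes, and 2 and 0 under the replicate block. With an SMN library left out, the higher and lower calls were 9 and 19 of 71 tested without replicate 2. They were 5 and 4 of 69 without replicate 1, and 5 and 2 of 70 without replicate 3. Calls over all features moved too, to 3067 higher and 2355 lower of 14013, 1725 and 581 of 13879, and 1414 and 409 of 13687, in the same order. The 20 genes kept their sign with library totals and with scaling on coding genes. The median of all features in the same comparison moved from -0.08 to -0.51 with library totals and to 0.15 with coding genes. Rescaling shifts all features by nearly the same amount. Those shifts were smaller than the estimate of each of the 20 genes and each family, so no sign could turn. The snRNA families kept their sign under each scaling. U1, for example, ranged from 5.11 to 5.79 and U7 from 8.40 to 9.26 over the alternatives.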

How the data were processed

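The deposited table gives raw read counts per Ensembl transcript for 8 libraries, with biotypes and lengths, per the file headers. Trimmomatic 0.36, Bowtie2 2.2.6, SAMtools and GRCm38.p4 are named in the submitters' processing notes. For reads that match several copies, the counting rule is not stated in any source at hand.

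Each gene outside the snRNA annotation was represented by its transcript with the highest library-scaled total, each named snRNA family by its most-read copy, and each unnamed snRNA row by itself (45574 features). Sm-class over U6 ratios are log2 values with 1 read added to each sum, and the printed ratios are without it. Groups were compared with edgeR 4.0.16 in R 4.3.3 (robust quasi-likelihood, TMM, filterByExpr with a minimum count of 10, two-sided), with features called at a Benjamini-Hochberg adjusted p under 0.05, and shares and ratios with exact permutation tests over libraries. In the first 2 comparisons the fit shrank each feature's spread fully to that of all features. Intervals on counts cover counting error only. The scripts were tested on simulated data. Coordinates are from RefSeq on GRCm38.p6; 1135 of 1371 Gm symbols matched its gene table, none with a U family synonym.

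Named were every family with 10 reads, its 3 most-read copies, the 5 most-read unnamed rows, called pathway genes or else the 2 with the smallest p (not all are printed), and the 5 features most like U1. The members and lists were chosen with earlier results of these data known. Alternatives were DESeq2 1.42.0, limma-voom (limma 3.58.1), other scalings, filters, sums over copies, all 8 libraries in 1 fit, the replicate number as a block and each library left out. Python 3.11.15 with pandas 2.3.3, scipy 1.17.1 and matplotlib 3.10.9 was used for the rest.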

Additional observations from a re-analysis of the deposited data

How the results depend on the processing

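Calls of the families did not move in any alternative by over 1.5 times: 0 against IgG, 5 to 7 higher in RiboLace (7 with no filter and with all 8 libraries in 1 fit, where U7 was also tested) and 7 higher in SMN over polysomes. The log2 ratio of the snRNA share between SMN and IgG turned from 0.02 to -0.092 over coding reads. It was -0.24 with all snRNA rows summed and -0.23 with rows of a named length summed. The last 2 were taken over the reads on all transcripts and were chosen after seeing the data. With an SMN library left out, the ratio ranged from -0.11 to 0.082. The Sm-class over U6 difference between SMN and polysomes turned from 0.03 to -0.37 with named copies summed and to -0.00054 with a pseudocount of 0.5, and ranged from -0.23 to 0.21 with a library left out. The cause was not tested.

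Of the uncalled family fold changes against IgG, U1 turned to 0.071 with copies summed and 0.035 with rows of a named length summed, and U12 to -0.078 with coding scaling, -0.061 with no filter, -0.0049 in the fit of all 8 libraries and -0.053 with rows of a named length summed. With an SMN library left out, U1 ranged from -0.23 to 0.10, U5 from -0.10 to 0.23, U7 from -0.00066 to 0.30 and U12 from -0.063 to 0.074. Called unnamed rows in RiboLace fell from 216 to 53 with limma-voom, 110 at a minimum count of 50, 45 with rows of a named length summed, where fewer rows remain, and 68 to 113 with a library left out. In SMN over polysomes they went from 396 to 607 with no filter, 223 at a minimum count of 50 and 104 with rows of a named length summed. Over all features, higher and lower calls in RiboLace went from 745 and 591 to 713 and 1038 with library totals and to 786 and 276 with coding scaling; in SMN over polysomes they went from 1949 and 1433 to 1342 and 3490 and to 2392 and 789. U7, untested in RiboLace, was called there with no filter (5.31, edgeR adjusted p = 0.0366) and in the fit of all 8 libraries (5.43, edgeR adjusted p = 0.0186).

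With the replicate block, 6 and 7 families remained called higher in RiboLace and in SMN over polysomes, and all calls went to 623 and 190 and to 1167 and 250. Same-numbered libraries deviated together with correlations of -0.02 to 0.04 over 6589 features. With 2 libraries in a group the deviations mirror each other, and the RiboLace libraries are shallow. These correlations therefore cannot decide whether same-numbered libraries were paired. U7 in RiboLace and polysomes and U6 in RiboLace rest on 6 reads or fewer a library, which limits their precision. With 1 IgG library, its own spread is not measured.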
